A study of Mus musculus with 24 samples.

Results

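Caveolae, the small flask-shaped pits of the plasma membrane, are built from caveolins and cavins. The genes described here are Cav1 and Cav2, the cavins Ptrf, Sdpr and Prkcdbp, and Ehd2, chosen by name and not by their values, and kept where the table of expression held a value above 0 in all 24 libraries. Of the 6 genes named, 5 passed: Cav1, Ptrf, Sdpr, Prkcdbp and Ehd2. They are 5 of 5035 genes with a value in every library, in a table of 22418 genes. Cav2, the partner that oligomerises with Cav1, had a value in 22 of 24 columns and was left out by the rule.

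Caveolins insert into the inner leaflet of the membrane as a hairpin and oligomerise, and cavins assemble on them as a peripheral coat, so that both are needed to bend the membrane into a pit. Adipocytes carry more caveolae than almost any other cell, where the pits hold signalling receptors and fatty acid transporters and buffer membrane tension as the lipid droplet grows. RefSeq now lists Ptrf as Cavin1, Sdpr as Cavin2 and Prkcdbp as Cavin3. Cav1 encodes the main structural caveolin, Ptrf the cavin without which caveolae do not form, Sdpr a cavin that shapes the pit and Prkcdbp a cavin tied to the traffic of caveolae. Ehd2 encodes an ATPase that sits at the neck of the pit and holds it at the membrane.

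Brown and white adipogenesis were followed in primary cells of C57BL/6 mice aged 2 to 3 weeks, grown from the stromal vascular fraction of interscapular brown fat (brown cultures) or of subcutaneous, inguinal white fat (white cultures). Cells of several mice went into each batch of culture. Cultures were taken at confluence, before induction (day 0), or at day 5, after 2 days in insulin, dexamethasone, isobutylmethylxanthine and rosiglitazone, 2 days in insulin and then medium with serum, so that every day 5 culture had received rosiglitazone and no day 0 culture had. Interscapular BAT and epididymal WAT (eWAT) came from untreated male C57BL/6 mice aged 6 weeks, 6 in all, with tissue of 3 mice pooled as a replicate. Both depots came from the same mice and each pool was divided between RNA-seq and ribosome profiling, so tissue libraries share animals across depots and assays, and no source used here says which replicate numbers share a pool. No group carried a transgene or a deletion. The white cultures thus came from a subcutaneous depot and the white tissue from a visceral one, and a fat depot holds vessels, stroma and immune cells beside its adipocytes.

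In each group 2 libraries of ribosome-protected fragments (RPF, the stretches of mRNA that ribosomes shield from nuclease) and 2 libraries of RNA were made. Values are RPKM, which scale the reads over a coding sequence to its length and to the mapped reads of the library, so levels of genes of different length can be set side by side. Eff, the translational efficiency, divides the RPKM of a gene in RPF by that in RNA. Nothing in the labels says whether the 2 libraries of a culture group came from separate cultures, so p-values measure the spread between these libraries, which may be technical. The libraries rested on 217395 to 1765714 RPF reads and 3757577 to 12307821 RNA reads over coding sequence, with the brown day 0 RPF libraries the shallowest. Of the adipocyte markers, 9 of 10 fitted rose in RPF and all 10 rose in RNA from day 0 to day 5 in brown cultures. The other, Cfd (adipsin), fell in brown RPF, from 477 and 496 to 310 and 350 RPKM (-0.56 ± 0.12, adjusted p = 0.0016), while its RNA rose by 2.83 ± 0.16. All 10 rose in both assays in white cultures. Ebf2, a brown adipocyte factor and the single brown marker of 12 that could be fitted, lay above white in brown cultures and in BAT in every library of both assays.

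Promoters of Cav1, Sdpr, Ehd2 and Ptrf are shown next, because their footprints moved apart during adipogenesis: in RPF, Cav1, Sdpr and Ehd2 rose in both lineages while Ptrf did not. Prkcdbp, which fell in RPF in both lineages, had no matched promoter window and is not shown. Each is 300 bases, 250 before and 50 after the start of the gene, in GRCm38.p6, read 5′ to 3′ on the strand of the gene. Cav1 lies on the plus strand at chr6:17306085-17306384, Sdpr on the plus strand at chr1:51288876-51289175, Ehd2 on the minus strand at chr7:15967486-15967785 and Ptrf on the minus strand at chr11:100970568-100970867. Capitals mark matches, on either strand, to TATAAA as a TATA box, to CCAAT, and to GGGCGG as a GC box.
Cav1: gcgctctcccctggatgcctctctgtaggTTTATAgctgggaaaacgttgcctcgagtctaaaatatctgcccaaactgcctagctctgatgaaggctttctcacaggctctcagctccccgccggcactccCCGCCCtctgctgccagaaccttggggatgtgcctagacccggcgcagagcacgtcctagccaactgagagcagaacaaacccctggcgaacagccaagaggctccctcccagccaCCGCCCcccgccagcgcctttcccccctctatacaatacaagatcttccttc
Sdpr: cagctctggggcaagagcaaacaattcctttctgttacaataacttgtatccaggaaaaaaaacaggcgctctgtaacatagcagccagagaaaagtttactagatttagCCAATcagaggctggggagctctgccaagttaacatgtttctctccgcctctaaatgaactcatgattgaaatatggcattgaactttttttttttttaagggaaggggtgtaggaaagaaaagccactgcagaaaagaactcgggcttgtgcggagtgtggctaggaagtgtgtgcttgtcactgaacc
Ehd2: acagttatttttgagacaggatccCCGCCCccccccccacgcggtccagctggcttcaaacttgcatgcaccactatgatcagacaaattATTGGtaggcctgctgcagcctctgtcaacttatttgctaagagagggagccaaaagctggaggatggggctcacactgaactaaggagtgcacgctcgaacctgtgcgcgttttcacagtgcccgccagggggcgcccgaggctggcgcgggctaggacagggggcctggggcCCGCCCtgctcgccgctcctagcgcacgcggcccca
Ptrf: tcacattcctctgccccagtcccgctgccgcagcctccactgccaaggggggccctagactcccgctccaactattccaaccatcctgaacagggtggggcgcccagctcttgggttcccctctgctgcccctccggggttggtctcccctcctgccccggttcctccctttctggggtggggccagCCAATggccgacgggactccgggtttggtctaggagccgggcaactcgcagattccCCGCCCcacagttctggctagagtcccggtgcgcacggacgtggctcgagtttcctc
No match overlaps another. The window of Cav1 holds TATAAA on the opposite strand at bases 30 to 35 and GGGCGG on the opposite strand at bases 133 to 138 and 249 to 254. CCAAT stands at bases 111 to 115 of Sdpr, at bases 188 to 192 of Ptrf and, on the opposite strand, at bases 91 to 95 of Ehd2. GGGCGG stands on the opposite strand in Ptrf and in Ehd2 and in neither direction in Sdpr. Among all 32851 promoters of the table, each of the same length, 13.6% hold TATAAA, 37.4% hold CCAAT and 35.7% hold GGGCGG on either strand. The same search for TTNCNNAA (C/EBP core, in 40.7% of promoters), TGACGTCA (CRE, 1.79%) and CACGTG (E box, 7.15%) found no match in these 4 windows. The GC share of the Sdpr window was 43.3%, against 59.3% for Cav1, 62% for Ehd2, 66.7% for Ptrf and a median of 52.7% over all promoters. These matches describe the letters of the windows and no more.

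During brown adipogenesis, Cav1, Sdpr and Ehd2 rose in ribosome footprints while Ptrf and Prkcdbp fell. All 5 genes passed in RPF, 3 higher and 2 lower, where 60.6% of all genes fitted passed (26.0% higher and 34.7% lower). In RNA 4 passed, 3 higher and 1 lower, where 74.6% of all genes passed (29.7% higher and 44.9% lower). The median log2 change of the 5 was 1.14 in RPF against -0.16 for all genes, and 0.87 in RNA against -0.20. A lower level in a bulk sample can mean fewer cells of a type or less RNA per cell, and these cannot be told apart.

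Cav1 RPF stood at 408 and 352 RPKM at brown day 0 and at 2904 and 2982 RPKM at day 5. Every day 5 library lay several times above every day 0 library, a log2 change of 2.96 ± 0.10 (SE, n = 2 libraries per group, adjusted p = 3.36e-11), or 7.77-fold. Its RNA went from 94.2 and 102 RPKM to 908 and 1057 RPKM, again with wide separation, a log2 change of 3.32 ± 0.10 (adjusted p = 7.32e-12). In RPF the change of Cav1 exceeded that of 96.6% of all genes fitted. Its brown day 0 RPF values rested on 53 and 41 reads. The fit shared a variance per gene over all groups, so the SE need not cover the counting error. The pit-shaping cavin Sdpr rose from 26.3 and 22.0 RPKM to 253 and 259 RPKM in RPF, a log2 change of 3.41 ± 0.16 (adjusted p = 7.42e-10). At day 0 those 2 values rested on 8 and 6 reads, while the day 5 values rested on 313 and 327. Its RNA, counted from 290 reads or more in every library, rose from 32.1 and 28.8 to 212 and 206 RPKM, a log2 change of 2.78 ± 0.10 (adjusted p = 1.93e-11).

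Ptrf, the coat cavin, went the other way in brown cultures. Its RPF was 448 and 363 RPKM at day 0 and 262 and 277 RPKM at day 5, with no overlap, and it fell by 0.58 on the log2 scale (SE 0.13, adjusted p = 0.0015). Its RNA of 293 and 266 RPKM at day 0 and 224 and 221 RPKM at day 5 also did not overlap, but the log2 change of -0.33 ± 0.15 did not pass (adjusted p = 0.0719). It passed with either BAT RNA library left out, at -0.33 and adjusted p = 0.00307 and 0.0031, and under quantile scaling, at -0.64. Prkcdbp RPF was 79.1 and 118 RPKM at day 0, from 15 and 20 reads, and 33.7 and 50.8 RPKM at day 5, from 26 and 40 reads. The groups did not overlap, and it fell by 1.22 (SE 0.31, adjusted p = 0.00397), a call lost without brown day 5 RPF replicate 1, at -0.92 and adjusted p = 0.0538. In RNA, from at least 287 reads per library in these groups, Prkcdbp fell from 223 and 208 to 87.5 and 97.7 RPKM, by 1.22 on the log2 scale (SE 0.18, adjusted p = 3.63e-05). Ehd2, the neck ATPase, rose from 114 and 98.7 to 236 and 230 RPKM in RPF (1.14 ± 0.14, adjusted p = 1.09e-05) and from 129 and 126 to 234 and 233 RPKM in RNA (0.87 ± 0.10, adjusted p = 3.32e-06). Its libraries of each day lay close together, and the days did not overlap in either assay.

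**Figure D1:**
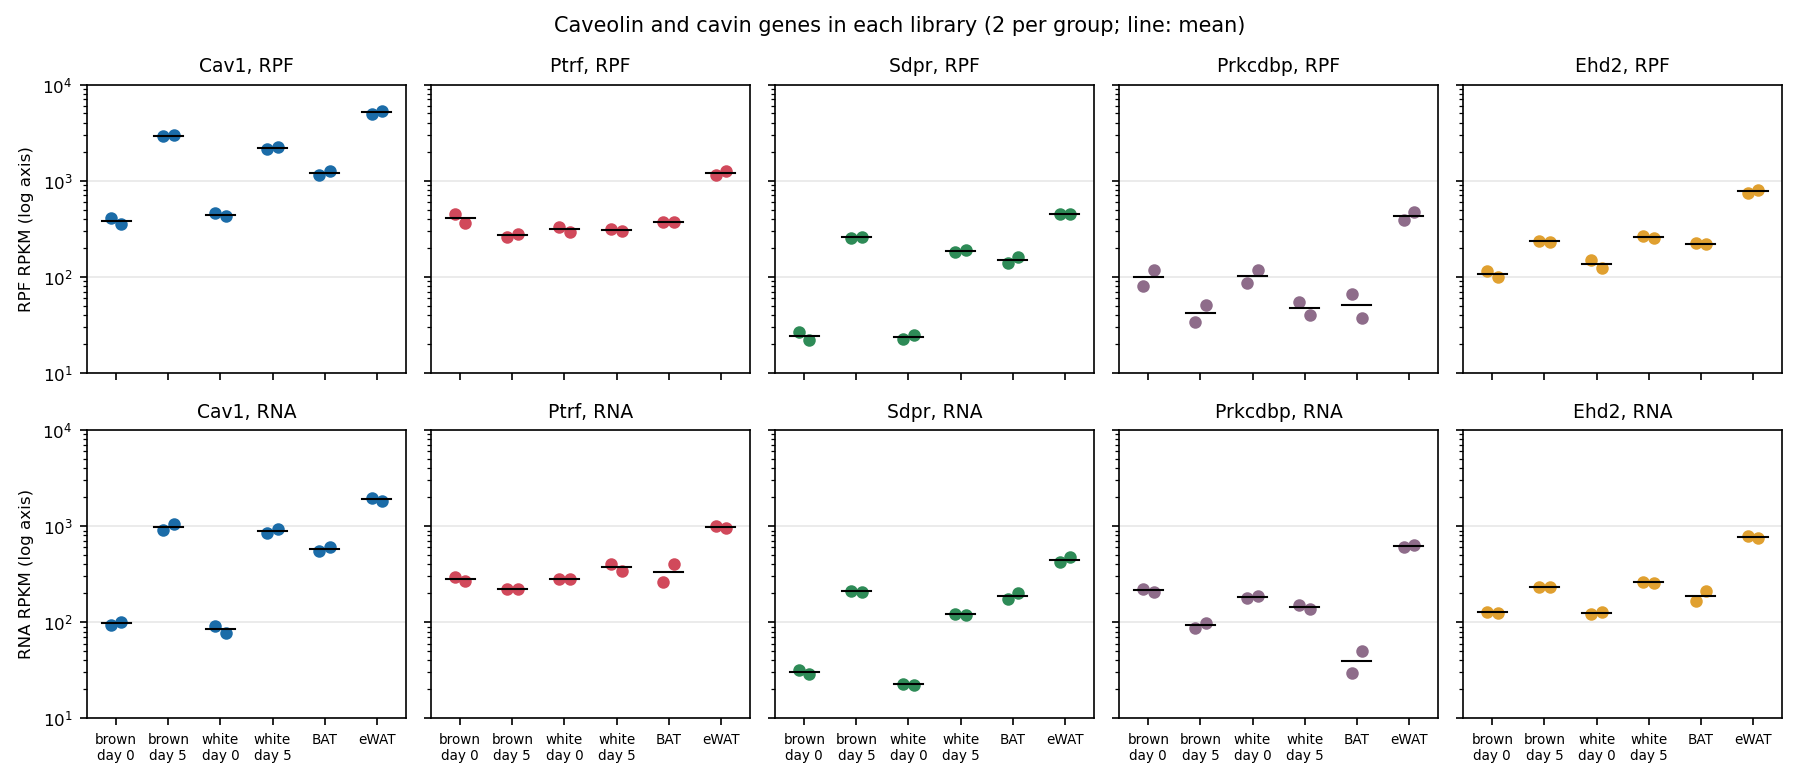
RPKM of the 5 genes on a log axis in each of 24 libraries, RPF above and RNA below, with points for single libraries and lines for group means. Cav1 and Sdpr rise steeply from day 0 to day 5 in both lineages, Ptrf stays within 223 to 406 RPKM as group means outside eWAT, and all 5 genes are highest in eWAT.

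Related genes gave a frame for these changes. Of 16 fitted genes listed as residents of caveolae, 7 rose and 5 fell in brown RPF, and among those with the smallest adjusted p were the glucose transporter Slc2a4 (5.46 ± 0.20) and the fatty acid translocase Cd36 (4.71 ± 0.23). Of 6 fitted caveola partners, 3 rose and 1 fell, the risers being Stom, a membrane scaffold of the stomatin family (1.32 ± 0.22), the F-BAR protein Pacsin2 (0.94 ± 0.21) and the fission GTPase Dnm2 (0.94 ± 0.22). Among 17 genes of the clathrin coat and its adaptors, another route of uptake, 2 rose and 8 fell, with Itsn1 (-2.25 ± 0.32), Dab2 (-2.12 ± 0.26) and the light chain Clta (-1.09 ± 0.20) the firmest. The median log2 change was 0.29 for residents, 0.71 for partners and -0.46 for the clathrin list, against -0.16 for all genes. Markers of other cell types moved too: all 11 fibroblast and stromal genes fell in RPF and RNA, among them Col1a1 (-4.10 ± 0.09). Of 5 smooth muscle and pericyte genes 4 fell in RPF, their summed RPF going from 1704 to 1767 RPKM down to 145 to 159 RPKM. In RNA 3 of these 5 fell and 2 rose. The part of these cell types in the changes of the caveola genes was not tested.

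During white adipogenesis the same 3 genes, Cav1, Sdpr and Ehd2, rose in RPF and Prkcdbp fell, while Ptrf did not pass. Thus 4 of 5 passed in RPF, 3 higher and 1 lower, where 52.8% of all genes passed (16.7% higher and 36.1% lower). In RNA 4 passed, all higher, where 81.0% of all genes passed (27.5% higher and 53.4% lower). The median log2 change was 0.93 in RPF against -0.38 for all genes, and 1.05 in RNA against -0.37.

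Cav1 RPF was 461 and 423 RPKM at white day 0 and 2129 and 2259 RPKM at day 5, a log2 change of 2.31 ± 0.10 (adjusted p = 9.11e-10). Its RNA rose more, from 91.3 and 77.8 to 856 and 936 RPKM, a log2 change of 3.41 ± 0.10 (adjusted p = 5.49e-12). Neither assay showed any overlap between days. Sdpr rose from 22.6 and 24.7 to 182 and 189 RPKM in RPF (2.97 ± 0.16, adjusted p = 6.24e-09), where the day 0 values rested on 11 and 17 reads, and from 22.8 and 22.2 to 121 and 120 RPKM in RNA (2.42 ± 0.10, adjusted p = 8.18e-11). The rise of Sdpr was thus larger in RPF than in RNA, the reverse of Cav1. Ehd2 rose from 150 and 123 to 262 and 254 RPKM in RPF (0.93 ± 0.14, adjusted p = 9.8e-05) and from 123 and 127 to 261 and 258 RPKM in RNA (1.05 ± 0.10, adjusted p = 5.18e-07). Its white day 5 levels stayed above those of day 0 in every library.

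Ptrf RPF, at 332 and 295 RPKM on day 0 and 313 and 295 RPKM on day 5, overlapped between days, with a log2 change of -0.04 ± 0.13 (adjusted p = 0.809). Its RNA went from 285 and 284 to 402 and 342 RPKM (0.38 ± 0.15, adjusted p = 0.0369). That call was lost without either brown day 5 RNA library, either white day 0 RNA library or white day 5 RNA replicate 1, where it was 0.26 with adjusted p = 0.22, and quantile scaling turned it to -0.05. Prkcdbp RPF went from 85.7 and 117 RPKM, on 26 and 50 reads, to 54.2 and 39.5 RPKM, on 34 and 12 reads, and fell by 1.11 (SE 0.31, adjusted p = 0.00845). The call was lost without white day 0 RPF replicate 2 (adjusted p = 0.0766), without white day 5 RPF replicate 2 (adjusted p = 0.0761), under median-of-ratios scaling (-0.77, adjusted p = 0.0608) and under quantile scaling (-0.81, adjusted p = 0.0538). Its RNA, at 178 and 186 RPKM on day 0 and 151 and 139 RPKM on day 5, did not overlap, with a change of -0.33 ± 0.18 that did not pass (adjusted p = 0.103). It passed with either BAT RNA library left out (-0.33, adjusted p = 0.00179 and 0.00182) and under quantile scaling (-0.51, adjusted p = 0.0162).

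Among residents of caveolae 10 of 16 rose and 2 fell in white RPF, led by Slc2a4 (3.94 ± 0.20), the fatty acid transporter Slc27a1 (3.62 ± 0.22) and Cd36 (3.48 ± 0.23), with a list median of 1.59. Of the 6 caveola partners 1 rose, Stom (0.71 ± 0.22), and 2 fell, the flotillin Flot2 (-0.83 ± 0.26) and Pacsin2 (-0.56 ± 0.21), which had risen in brown cells. Of the clathrin list 9 of 17 fell and none rose, led by Snx9 (-1.36 ± 0.19), Clta (-1.23 ± 0.20) and Itsn1 (-1.93 ± 0.32). Fibroblast and stromal genes fell in 7 of 11 cases and rose in 2, and their summed RPF went from 25611 to 26215 RPKM down to 11504 to 11609 RPKM.

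Genes that rose most in RNA stood nearer to their day 5 level in white day 0 RPF than in white day 0 RNA, which touches the values of Cav1 and Sdpr. The 50 genes with the largest RNA rise stood at 2.40% of their day 5 level in white day 0 RNA but at a median of 9.95% in white day 0 RPF, while in brown cells these values were 3.18% and 5.07%. Read as a share of day 5 signal in day 0 RPF, this came to 8.0% in white and 2.23% in brown. The 50 genes were picked by the RNA ratio itself, and every gene needed a value above 0 in each day 0 RPF library. Both choices can raise the RPF ratio over the RNA ratio, so the share may be overstated. With that share subtracted, white day 0 Cav1 RPF was 286 and 247 RPKM and Sdpr 7.75 and 9.93 RPKM, in place of 461 and 423 and of 22.6 and 24.7. The white log2 change then became 3.04 for Cav1 and 4.40 for Sdpr. In brown cells the changes became 3.23 and 3.80. Both genes rose either way, but values that compare the lineages at day 0, or their day 5 changes, moved with this share.

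Brown and white cells were then set against each other. At day 0, 1 of 5 genes passed in RPF, where 37.3% of all genes passed (12.4% higher and 24.9% lower in brown): Ptrf, higher in brown by 0.37 ± 0.13 (adjusted p = 0.0397). This call was lost in 7 of 12 fits with a library left out, namely without brown day 0 RPF replicate 1 (0.21, adjusted p = 0.217), either white day 0 RPF library (adjusted p = 0.056 and 0.206), either brown day 5 RPF library (0.0534 and 0.0536) or either BAT RPF library (0.0569 and 0.0568). In RNA, where 3.75% of all genes passed (2.90% higher and 0.854% lower in brown), the 1 gene of 5 was Sdpr, higher in brown by 0.43 ± 0.10 (adjusted p = 0.0233), with 32.1 and 28.8 RPKM in brown and 22.8 and 22.2 RPKM in white. The Sdpr call was lost without any single library of these 2 groups, at adjusted p of 0.0541 to 0.275. Cav1 did not pass at day 0, at -0.22 ± 0.10 in RPF (adjusted p = 0.0966) and 0.22 ± 0.10 in RNA (adjusted p = 0.343). Without brown day 0 RPF replicate 1 the RPF values of Cav1 (-0.33, adjusted p = 0.0261) and Ehd2 (-0.46, adjusted p = 0.0329) passed, as did Ehd2 without white day 0 RPF replicate 2 (-0.50, adjusted p = 0.0374).

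At day 5, 1 of 5 passed in RPF and 3 of 5 in RNA, where 13.7% of all genes passed in RPF (5.48% higher and 8.26% lower in brown) and 51.9% in RNA (32.0% higher and 19.9% lower). Cav1 RPF was higher in brown, 2904 and 2982 RPKM against 2129 and 2259 RPKM (0.42 ± 0.10, adjusted p = 0.0126), with RNA at 0.13 ± 0.10 (adjusted p = 0.311). The Cav1 call was lost without any of the 4 RPF libraries compared, at adjusted p of 0.0526 to 0.0881, and under quantile scaling (0.17, adjusted p = 0.38). Sdpr RNA was higher in brown by 0.80 ± 0.10 (adjusted p = 3.93e-05), 212 and 206 RPKM against 121 and 120 RPKM, and held with any library left out. Its RPF difference of 0.47 ± 0.16 did not pass (adjusted p = 0.0719), although all brown values lay above all white values, and it passed without brown day 0 RPF replicate 1 (adjusted p = 0.0316) or replicate 2 (adjusted p = 0.031) and in a voom fit on recovered reads (adjusted p = 0.00336). Ptrf RNA was lower in brown by 0.74 on the log2 scale (-0.74 ± 0.15, adjusted p = 0.00167) and Prkcdbp RNA likewise (-0.65 ± 0.18, adjusted p = 0.00919). For Prkcdbp the call was lost without brown day 5 RNA replicate 1 (adjusted p = 0.0693) or white day 5 RNA replicate 1 (adjusted p = 0.0554). Ehd2 was close in both lineages, at -0.15 ± 0.14 in RPF and -0.15 ± 0.10 in RNA (adjusted p = 0.525 and 0.221). Other markers were lower in brown cultures as well: 10 of 11 fibroblast and stromal genes in RPF (median -1.34) and 9 of 11 in RNA (median -1.13), and Lyz2 at -2.54 ± 0.23 and -1.94 ± 0.11. Their part in these differences was not tested.

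The difference of the day 5 changes, brown minus white, tests the lineages against each other directly. In RPF 2 of 5 passed, where 31.2% of all genes passed: Cav1 rose more in brown by 0.65 ± 0.14 (adjusted p = 0.00431), and the change of Ptrf was lower in brown, at -0.54 ± 0.18 (adjusted p = 0.0376). The Cav1 difference held with any library left out but shrank to 0.19 (adjusted p = 0.413) once the day 5 share was subtracted from day 0 RPF, and to 0.20 (adjusted p = 0.358) under quantile scaling. For Ptrf RPF the call was lost without brown day 0 replicate 1, white day 0 replicate 2, or either brown day 5, white day 5 or BAT library, at adjusted p of 0.0548 to 0.12. In RNA 2 of 5 passed, where 35.3% of all genes passed (21.6% higher and 13.7% lower): Ptrf (-0.71 ± 0.22, adjusted p = 0.0244) and Prkcdbp (-0.89 ± 0.25, adjusted p = 0.0168). The Ptrf RNA call was lost without brown day 0 replicate 1, white day 5 replicate 1, or either brown day 5 or white day 0 library (adjusted p up to 0.0892), and that of Prkcdbp without replicate 1 of any of the 4 culture groups (adjusted p up to 0.0642). Sdpr RNA, at 0.36 ± 0.14 (adjusted p = 0.0572), passed without either BAT RNA library (adjusted p = 0.0214 and 0.0216). In the same contrast 8 of 11 fibroblast and stromal genes were lower in RPF and 1 higher, 9 of 11 were lower in RNA, and 8 of 10 adipocyte genes were lower in RNA, and their part was not tested.

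**Figure D2:**
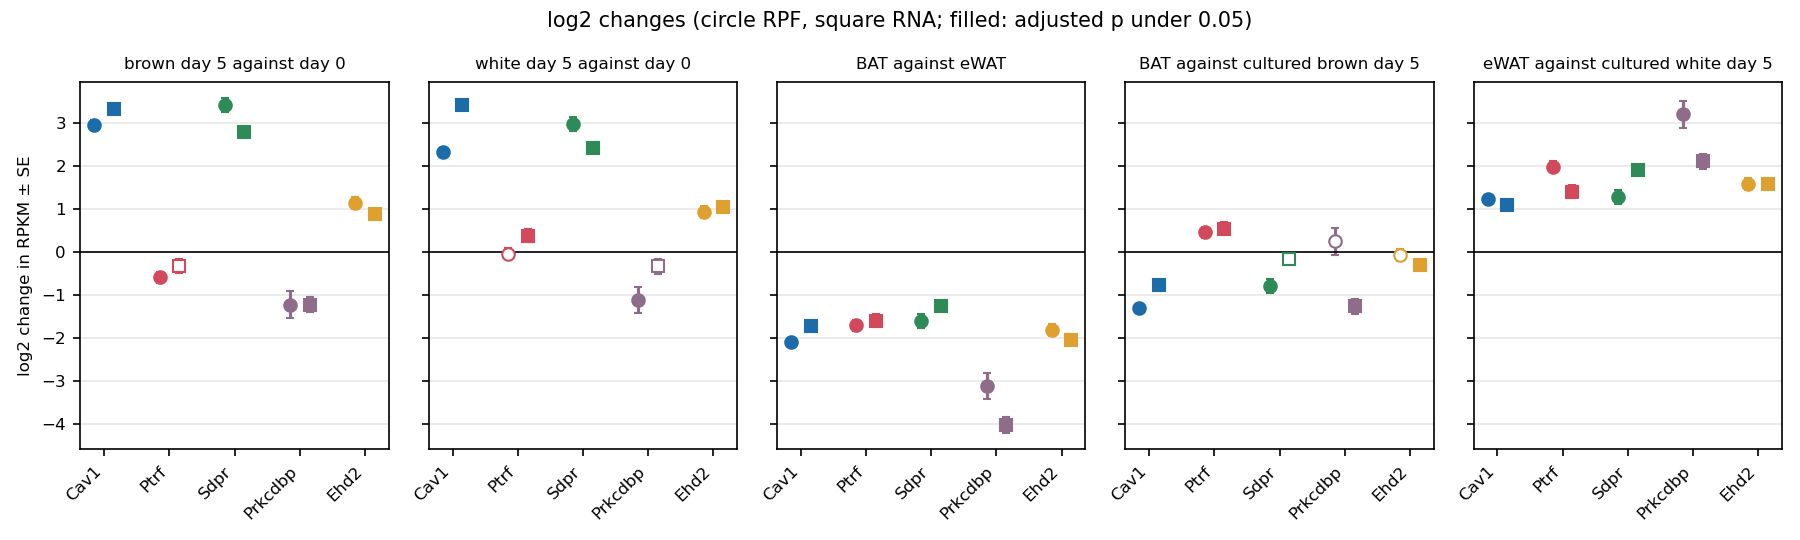
The log2 changes of the 5 genes with their standard errors in 5 comparisons, circles for RPF and squares for RNA, filled where the adjusted p was under 0.05. Cav1 and Sdpr lead both day 5 panels, all 5 genes lie below 0 in BAT against eWAT and all 5 lie above 0 in eWAT against white cultures.

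Because RPKM is scaled to length, the cavins could be set against Cav1 within each library. The ratio of Ptrf to Cav1 in RPF was 1.10 and 1.03 at brown day 0 and 0.0901 and 0.0928 at brown day 5. In white cells it went from 0.720 and 0.697 to 0.147 and 0.131. The coat cavin and the caveolin were thus near parity in the footprints of brown preadipocytes. At brown day 5 the footprint RPKM of Cav1 lay about an order of magnitude above that of Ptrf, and the gap was smaller at white day 5. In RNA, Ptrf exceeded Cav1 at day 0, with mean ratios of 2.86 in brown and 3.39 in white, and lay below it at day 5, at 0.228 and 0.417. Sdpr kept closest to Cav1: its RPF ratio had a mean of 0.0634 and 0.0537 at brown and white day 0, 0.0869 and 0.0844 at day 5, 0.124 in BAT and 0.0874 in eWAT. Prkcdbp to Cav1 in RNA dropped from a mean of 2.21 at brown day 0 to 0.0944 at day 5 and was 0.0684 in BAT and 0.328 in eWAT. Ehd2 to Cav1 in RPF lay between 0.0792 and 0.308 as group means, lowest at brown day 5 and highest at white day 0. With Cav2 left out, no ratio between the caveolins was computed.

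Summed over the 5 genes, RPF was 1075 and 953 RPKM at brown day 0, 3688 and 3798 RPKM at brown day 5, 1941 and 2037 RPKM in BAT and 7724 and 8223 RPKM in eWAT. Cav1 made up 37.9% and 36.9% of that sum at brown day 0 and 78.7% and 78.5% at brown day 5, while Ptrf went from 41.7% and 38.1% to 7.09% and 7.29%. In RNA, Cav1 made up 12.2% and 13.9% at brown day 0 and 54.5% and 58.2% at brown day 5. Tissues lay between these states in RPF, with Cav1 at 58.8% and 61.6% in BAT and 64.6% and 64.0% in eWAT. No test was made on these shares.

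**Figure D3:**
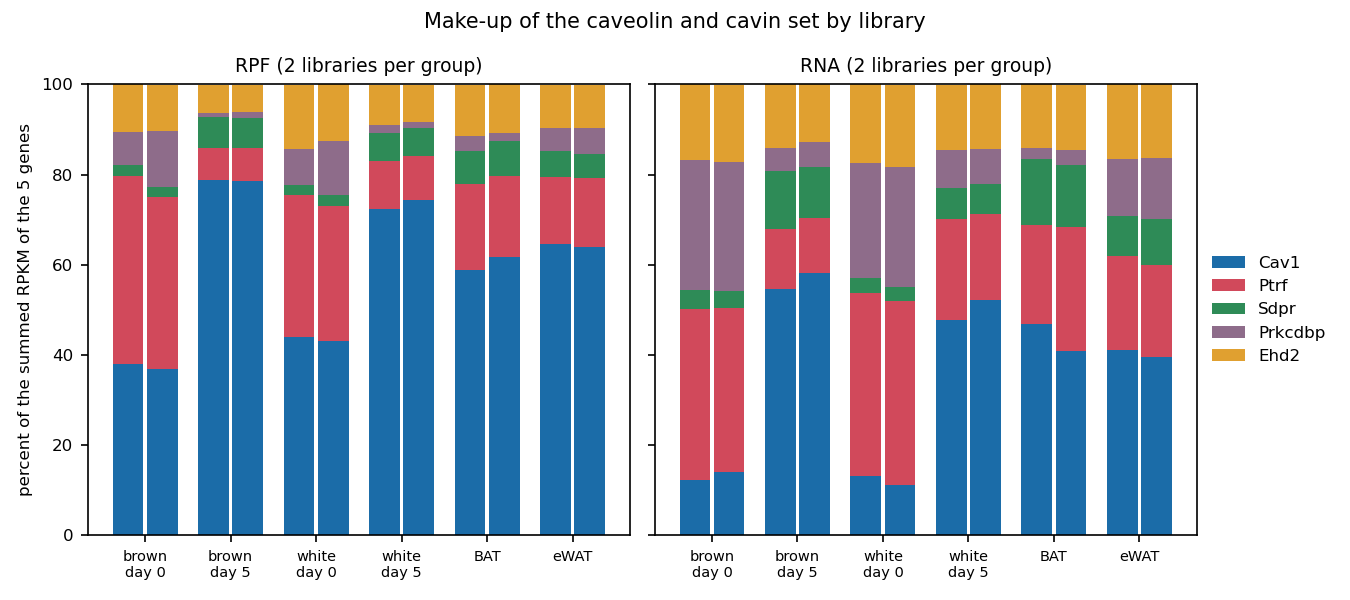
Share of each gene in the summed RPKM of the 5 genes, with a stacked bar for each library, RPF on the left and RNA on the right. Cav1 fills 36.9% to 43.9% of the RPF bars at day 0 and 72.4% to 78.7% at day 5, while Ptrf and Prkcdbp give way.

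In tissue, all 5 genes were lower in BAT than in eWAT in both assays. This was 5 of 5 lower in RPF, where 28.1% of all genes were lower (39.8% in either direction and 11.6% higher), and 5 of 5 lower in RNA, where 50.2% were (69.2% in either direction and 19.1% higher). The median log2 difference was -1.81 in RPF against -0.31 for all genes, and -1.72 in RNA against -0.30. The direction of all 5 and their calls held in both assays with any library left out and under both other scalings.

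Cav1 RPF was 1141 and 1255 RPKM in BAT and 4986 and 5262 RPKM in eWAT, a log2 difference of -2.10 ± 0.10 (n = 2 pools of 3 mice per group, adjusted p = 4.96e-09). Its RNA was 557 and 600 RPKM in BAT and 1959 and 1843 RPKM in eWAT (-1.72 ± 0.10, adjusted p = 9.59e-09). Every eWAT pool lay more than 3-fold above every BAT pool. Ptrf RPF was 373 and 367 RPKM in BAT and 1156 and 1246 RPKM in eWAT (-1.70 ± 0.13, adjusted p = 3.12e-07), and its RNA 260 and 403 against 997 and 961 RPKM (-1.59 ± 0.15, adjusted p = 9.78e-07). The 2 BAT pools lay apart in Ptrf RNA and close together in Ptrf RPF. Sdpr RPF was 139 and 158 RPKM in BAT and 448 and 447 RPKM in eWAT (-1.59 ± 0.16, adjusted p = 4.37e-06), with RNA at 175 and 200 against 424 and 472 RPKM (-1.26 ± 0.10, adjusted p = 9.9e-08).

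Prkcdbp differed most of the 5. Its RPF was 65.6 and 36.9 RPKM in BAT, on 46 and 51 reads, and 387 and 466 RPKM in eWAT (-3.11 ± 0.31, adjusted p = 4.36e-06), and its RNA was 29.3 and 50.5 RPKM against 609 and 636 RPKM (-4.01 ± 0.18, adjusted p = 5.93e-10). Both pools of BAT lay far below both pools of eWAT, though the BAT pools were not close to each other. Ehd2 RPF was 223 and 219 RPKM in BAT and 747 and 801 RPKM in eWAT (-1.81 ± 0.14, adjusted p = 3.73e-07), and its RNA 168 and 212 against 790 and 759 RPKM (-2.04 ± 0.10, adjusted p = 1.33e-09).

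Other lists moved in the same comparison. Of residents of caveolae 7 of 16 were lower and 1 higher in RPF (median -0.83), among them the amine oxidase Aoc3 (-1.71 ± 0.17) and the integrin Itgb1 (-1.32 ± 0.13). Of caveola partners 2 of 6 were lower, Ehd1 (-1.22 ± 0.18) and Flot1 (-0.82 ± 0.25), and Stom was higher (1.24 ± 0.22). The clathrin list had 9 of 17 lower (median -0.57). Adipocyte genes were lower in 5 of 10 cases in RPF and in 6 of 10 in RNA, where 1 was higher, and the summed RPF of the 10 was 41479 to 42095 RPKM in BAT and 93969 to 94308 RPKM in eWAT. Of smooth muscle and pericyte genes 4 of 5 were lower in RPF, Acta2 by 1.76 among them (-1.76 ± 0.19), with sums of 120 to 140 RPKM in BAT and 294 to 307 RPKM in eWAT. In RNA 4 of these 5 were lower and 1 was higher. Fibroblast and stromal genes were lower in 9 of 11 cases in RPF (sums 7289 to 7365 against 15352 to 16747 RPKM) and in all 11 in RNA, and the macrophage gene Lyz2 was lower as well (-1.25 ± 0.23). None of 22 endothelial, 10 mesothelial or 12 skeletal muscle markers had a value in all 24 libraries, so vessel, serosal and muscle content could not be read here, although endothelial cells are rich in caveolae. The part of these cell types in the tissue difference was not tested.

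The order of the 6 groups can be read for each gene. In Cav1 RPF it ran from brown day 0, white day 0, BAT, white day 5 and brown day 5 to eWAT, with no overlap between neighbours. In Cav1 RNA white day 0 came lowest, and white day 5 and brown day 5 overlapped. Sdpr had the same RPF order apart from the day 0 groups, which overlapped, and Ehd2 RPF rose from brown day 0, white day 0, BAT and brown day 5 to white day 5 and eWAT without overlap. Ptrf RPF was lowest at brown day 5, and white day 5 overlapped white day 0 as BAT overlapped brown day 0. Prkcdbp RPF was lowest at brown day 5, white day 5 and BAT, which overlapped in that order, and its RNA was lowest in BAT. For all 5 genes in both assays eWAT was the highest group and overlapped no other. The share of all genes fitted with eWAT highest and apart was not computed, so how unusual this is cannot be read here.

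Set against day 5 cultures, BAT with brown and eWAT with white, the tissues split. The white pair differs in depot (visceral against subcutaneous), and both pairs differ in mouse age (6 against 2 to 3 weeks). Neither can be told apart from tissue against culture. In eWAT all 5 genes lay above white day 5 cultures, 5 of 5 in RPF, where 13.7% of all genes were higher (38.1% in either direction), and 5 of 5 in RNA, where 37.5% were (68.5% in either direction). The log2 differences in RPF were 1.22 ± 0.10 for Cav1, 1.98 ± 0.13 for Ptrf, 1.27 ± 0.16 for Sdpr, 3.20 ± 0.31 for Prkcdbp and 1.58 ± 0.14 for Ehd2 (adjusted p from 7.46e-08 to 3.14e-05). In RNA they were 1.09 ± 0.10, 1.40 ± 0.15, 1.89 ± 0.10, 2.10 ± 0.18 and 1.58 ± 0.10 in the same order of genes. Prkcdbp had the largest estimate of the 5 in both assays. Markers of other cells were also higher in eWAT: Lyz2 by 2.80 ± 0.23 in RPF and 2.40 ± 0.11 in RNA, 3 of 5 smooth muscle and pericyte genes in each assay (median 0.83 and 1.66), and 5 of 11 fibroblast and stromal genes in RPF and 6 of 11 in RNA, where 3 and 5 were lower. Their part in the difference was not tested.

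By these estimates BAT stood nearer to its cultures than eWAT did for every gene in RNA and for every gene but Cav1 in RPF. The Cav1 RPF differences were -1.30 for BAT and 1.22 for eWAT. Against brown day 5, Cav1 RPF was lower (-1.30 ± 0.10, adjusted p = 7.24e-07), Sdpr RPF lower (-0.79 ± 0.16, adjusted p = 0.00173) and Ptrf RPF higher (0.46 ± 0.13, adjusted p = 0.0121), so that 1 was higher and 2 were lower, where 8.40% and 35.9% of all genes were (44.3% in either direction). In RNA 1 was higher and 3 were lower, where 63.6% of all genes passed (12.7% higher and 50.9% lower): Cav1 (-0.76 ± 0.10), Prkcdbp (-1.26 ± 0.18) and Ehd2 (-0.31 ± 0.10) below and Ptrf above (0.54 ± 0.15). The Ptrf RPF call was lost without brown day 5 RPF replicate 1 (0.42, adjusted p = 0.0772) or BAT RPF replicate 1 (0.45, adjusted p = 0.0671), and its RNA call without BAT RNA replicate 2 (0.23, adjusted p = 0.0717). The Ehd2 RNA call was lost without either brown day 5 RNA library (adjusted p = 0.0656 and 0.0647) or BAT RNA replicate 1 (-0.14, adjusted p = 0.124), and Sdpr RNA passed without BAT RNA replicate 2 (-0.26, adjusted p = 0.0374). Median-of-ratios scaling gave 2 higher and 1 lower in RPF, with Ehd2 at 0.40 (adjusted p = 0.0441) in place of -0.07 and Sdpr at -0.31 (adjusted p = 0.168). Lyz2 was higher in BAT, by 4.09 ± 0.23 in RPF and 2.26 ± 0.11 in RNA, and fibroblast and stromal genes were higher in 8 of 11 cases and lower in 2 in RPF but lower in 7 and higher in 2 in RNA, and their part was not tested. Since tissue RPF libraries carry another sequencing lane in their headers than culture RPF libraries, lane and source cannot be told apart in the RPF values of these comparisons.

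The gap between BAT and eWAT, less the gap between brown and white cultures at day 5, was negative for all 5 genes and passed in both assays, where 13.9% of all genes in RPF and 51.3% in RNA were lower (21.4% and 65.8% in either direction, 7.45% and 14.5% higher). In RPF it was -2.52 ± 0.14 for Cav1, -1.52 ± 0.18 for Ptrf, -2.06 ± 0.22 for Sdpr, -2.95 ± 0.44 for Prkcdbp and -1.66 ± 0.20 for Ehd2. For each gene the tissues thus lay further apart than the cultures, with eWAT on the higher side. In RNA it ran from -0.86 ± 0.22 for Ptrf to -3.37 ± 0.25 for Prkcdbp, and the Ptrf value of -0.48 under median-of-ratios scaling did not pass (adjusted p = 0.0945). Of fibroblast and stromal genes 7 of 11 were higher and 2 lower in RPF, and 1 was higher and 5 lower in RNA, and their part was not tested. Brown and white RPF libraries shared a lane within cultures and within tissues, so this difference of differences is made within lanes.

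Eff set Cav1 apart from the other 4. As the ratio of the group means, Cav1 Eff was 3.88 at brown day 0, 3.00 at brown day 5, 5.23 at white day 0, 2.45 at white day 5, 2.07 in BAT and 2.70 in eWAT. These values lay above 91.4% to 98.5% of all genes in each group, where the median Eff of all genes was 0.856 to 1.03. Cav1 has the shortest coding sequence of the 5, 534 bases against 780 for Prkcdbp, 1176 for Ptrf, 1254 for Sdpr and 1629 for Ehd2, and the part of coding length in its Eff was not tested. Prkcdbp had the lowest Eff of the 5 in every group but BAT, at 0.456 and 0.457 in brown and 0.555 and 0.324 in white at day 0 and day 5, 0.686 in eWAT and 1.28 in BAT. The BAT value rested on libraries that lay apart, 65.6 and 36.9 RPKM in RPF and 29.3 and 50.5 RPKM in RNA. Ptrf Eff ranged from 0.819 to 1.45, Sdpr Eff from 0.792 to 1.54 and Ehd2 Eff from 0.834 to 1.17.

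**Figure D4:**
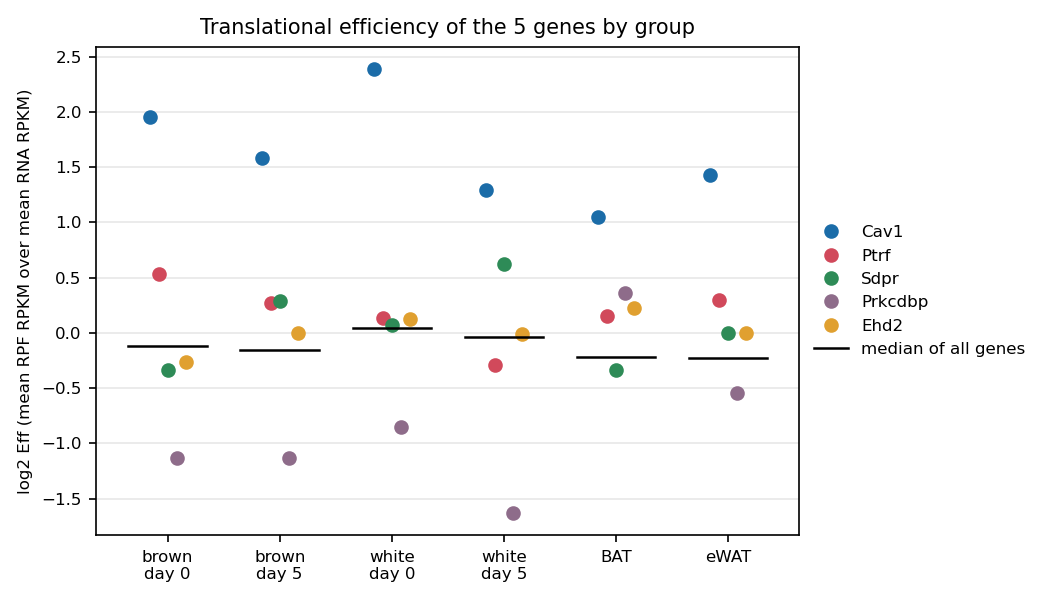
log2 Eff of the 5 genes in the 6 groups, as the mean RPF RPKM over the mean RNA RPKM of 2 libraries each, with a line for the median of all 5035 genes. Cav1 stands highest in every group, and Prkcdbp lowest in every group but BAT.

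During brown adipogenesis 1 of 5 passed, where 35.9% of all genes passed: Sdpr, up by 0.63 ± 0.18 (adjusted p = 0.00901), and by 0.50 to 0.76 with any library left out. Its day 0 RPF values rested on 8 and 6 reads in brown and 11 and 17 in white. The fit shared a variance per gene over all groups, so the SE need not cover the counting error of so few reads. During white adipogenesis 2 of 5 passed, where 24.3% of all genes passed: Cav1, which fell by 1.10 (SE 0.15, adjusted p = 2.86e-05), and Sdpr, up by 0.55 ± 0.18 (adjusted p = 0.029). Cav1 in brown gave -0.37 ± 0.15 (adjusted p = 0.0638), which passed without brown day 0 RPF replicate 2 (-0.47, adjusted p = 0.0235) or brown day 5 RNA replicate 1 (-0.47, adjusted p = 0.0403). With the day 5 share subtracted from day 0 RPF, the white change of Cav1 Eff was -0.37 and did not pass (adjusted p = 0.12), while that of Sdpr was 1.98 (adjusted p = 2.33e-06). The white Sdpr call was lost without white day 0 RPF replicate 1, white day 5 RPF replicate 2 or any of the 4 white culture RNA libraries, at adjusted p of 0.0666 to 0.0905. By these estimates the RPF rise of Sdpr was larger than its RNA rise in both lineages. The RPF rise of Cav1 was smaller than its RNA rise, which in Eff passed in white alone. No test compared the 2 genes. For Sdpr the Eff change rested on few day 0 reads.

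Between lineages, 1 of 5 passed in Eff at day 0, where 33.2% of all genes passed: Cav1, lower in brown by 0.44 ± 0.15 on the log2 scale (adjusted p = 0.03). This Cav1 call was lost under both other scalings. It was lost without brown day 0 RPF replicate 2, white day 0 RPF replicate 1, or replicate 2 of either day 0 RNA group (adjusted p of 0.101 to 0.161), and reached 0.02 with the day 5 share subtracted. Without brown day 0 RPF replicate 1, Sdpr (-0.54, adjusted p = 0.0218) and Ehd2 (-0.49, adjusted p = 0.0345) passed too, and Ehd2 also passed without white day 0 RPF replicate 2 or either BAT RNA library (adjusted p of 0.0277 to 0.0491). At day 5 none of 5 passed in limma's test, where 7.41% of all genes passed, with 1 at an unadjusted p under 0.05, Ptrf, at 0.56 ± 0.21 (adjusted p = 0.108), which passed without either BAT RNA library (adjusted p = 0.0311 and 0.0312). The difference of the day 5 changes passed for Cav1 alone of the 5, where 15.6% of all genes passed, at 0.73 ± 0.21 (adjusted p = 0.0246). It was lost without white day 0 RPF replicate 1, brown day 0 RNA replicate 2, brown day 5 RNA replicate 1, white day 0 RNA replicate 2 or white day 5 RNA replicate 2 (adjusted p of 0.0529 to 0.0829), under both other scalings, and with the day 5 share subtracted (0.28, adjusted p = 0.455).

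Between BAT and eWAT no gene of the 5 passed in Eff in limma's test, where 4.05% of all genes passed, and 2 had an unadjusted p under 0.05. The log2 differences were -0.38 ± 0.15 for Cav1, -0.10 ± 0.21 for Ptrf, -0.33 ± 0.18 for Sdpr, 0.91 ± 0.39 for Prkcdbp and 0.23 ± 0.17 for Ehd2. Between BAT and brown cultures 3 of 5 passed, where 17.8% of all genes passed: Prkcdbp was higher (1.51 ± 0.39, adjusted p = 0.0099), Cav1 lower (-0.54 ± 0.15, adjusted p = 0.017) and Sdpr lower (-0.63 ± 0.18, adjusted p = 0.0183). All 3 calls were lost without BAT RPF replicate 1 (adjusted p of 0.0705 to 0.0849). Prkcdbp was also lost without brown day 5 RPF replicate 1 (adjusted p = 0.064) or BAT RNA replicate 1 (0.0747), Cav1 without brown day 5 RPF replicate 2 (0.0502), brown day 5 RNA replicate 1 (0.104) or BAT RNA replicate 2 (0.0523), and Sdpr without either brown day 5 RNA library (0.0523 and 0.0696) or BAT RNA replicate 2 (0.0638). Between eWAT and white cultures 2 of 5 passed, where 23.6% of all genes passed: Sdpr was lower (-0.62 ± 0.18, adjusted p = 0.0155) and Prkcdbp higher (1.09 ± 0.39, adjusted p = 0.0462). Median-of-ratios scaling lost the Sdpr call and quantile scaling the Prkcdbp call. The Prkcdbp call was lost in 13 of 24 fits with a library left out, that is without any of the 8 RNA libraries of the cultures, either RNA or RPF library of eWAT or white day 5 RPF replicate 2 (adjusted p up to 0.16), and with the replicate block (adjusted p = 0.0543). The Sdpr call was lost without white day 5 RNA replicate 2 (adjusted p = 0.0577) or eWAT RNA replicate 2 (0.072), and Ptrf (0.58 ± 0.21, adjusted p = 0.053) passed without either brown day 0 RPF library (0.0364 and 0.0363) or either BAT RNA library (0.0111 and 0.0112). For the gap between tissues less that between cultures none of 5 passed in limma's test, where 4.21% of all genes passed, and 2 had an unadjusted p under 0.05: Cav1 passed without either brown day 0 RPF library and Ptrf (-0.98, adjusted p = 0.0201) without BAT RNA replicate 1.

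Over the 12 libraries of an assay, the patterns of Cav1 and Sdpr were the closest of the 5 genes. Ehd2 ran near both, with an r to Sdpr of 0.874 in RPF and 0.852 in RNA. Cav1 and Sdpr had a Pearson r of 0.981 in RPF and 0.969 in RNA on the log2 scale, and Cav1 with Ehd2 gave 0.903 and 0.855. Cav1 with Ptrf gave 0.451 and 0.535, and Cav1 with Prkcdbp 0.207 and 0.0721. Ptrf ran closest to Prkcdbp in RPF (0.891) and to Ehd2 in RNA (0.865). These are descriptions over 2 libraries in each of 6 groups, which are not independent points, and no p is given.

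Of 5034 other genes, those most like Cav1 in RPF were Cyb5 (r of 0.984), a cytochrome of the endoplasmic reticulum, Sdpr (0.981), the glutamine transporter Slc1a5 (0.976), the transglutaminase Tgm2 (0.972) and Enpp2, which encodes autotaxin (0.972). In RNA they were Sh3glb2 (0.988), Tgm2 (0.986), Dlc1, a RhoGAP (0.984), Aoc3 (0.984) and Slc1a5 (0.983), and Sdpr came 25th by rank. Slc1a5 and Tgm2 stood in both lists. For Ptrf the nearest in RPF were Lbp, the lipopolysaccharide binding protein (0.983), Epb4.1l2 (0.969), LOC675521 (0.944), the complement gene C4b (0.922) and Ahnak (0.920). In RNA they were the plexin Plxnd1 (0.973), the phospholipid transfer protein Pltp (0.968), Ppp1r9b (0.965), Mum1 (0.962) and Unc93b1 (0.954). The Ptrf lists of the 2 assays had no gene in common.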

How the data were processed

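Ribosome-protected fragments and RNA were sequenced from 24 libraries, 2 for each of 6 conditions in 2 assays. The authors deposited RPKM values, made from reads over the coding sequence mapped to a transcriptome of the most abundant isoforms at 1 site per read with no mismatches. The submitters' processing notes name cutadapt 1.8.3, TopHat2 2.0.9 and Bowtie 1.0.0, and the genome build was not given in the sources used here. A sheet that lists raw read files was not used. Genes with a value above 0 in every library (5035) were fitted on log2 RPKM, with no pseudocount, in limma 3.58.1 (R 4.3.3) with a trend in the prior variance. Separate fits took the 12 RPF and the 12 RNA libraries, and Eff was tested over all 24 as an interaction between assay and group. Each assay and Eff had 9 comparisons, with Benjamini-Hochberg adjustment over all genes fitted and calls at an adjusted p under 0.05. The fit was tested on simulated data first. Depth was read from the RPKM steps: with coding lengths of GENCODE M21, values of 4770 of 4841 genes came to within 0.05 of whole reads in every library. These read numbers show counting error only. Descriptions and figures used Python 3.11.15 with numpy 2.4.6, pandas 2.3.3 and matplotlib 3.10.9.

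Genes and lists were chosen with earlier results of these data known. The rule for naming genes took all members in every comparison, up to 3 genes of a list by smallest adjusted p in the RPF fit and the 5 genes most correlated with Cav1 and with Ptrf. Members that did not pass are not all given in each comparison. Some genes that this rule names are not reported here, and Cfd was named after its values were seen. Alternatives were a pseudocount of 1, a minimum mean of 5 RPKM, median-of-ratios and quantile scaling, the replicate number as a block, fits of the compared groups alone, no variance trend, subtraction of a day 5 share from day 0 RPF, weights per assay, voom on recovered RPF reads and each library left out. The labels do not pair libraries by number, although tissue libraries share mice. Rows with a missing value, Cav2 among them, were not analysed here.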

Additional observations from a re-analysis of the deposited data

Results flagged for a closer look

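These results are listed because the effect in one lineage or pair of sources differed from that in the other by a test of the difference itself, in the limma fit over all genes with adjusted p under 0.05. Between the day 5 changes, brown minus white, the log2 difference was 0.65 for Cav1 and -0.54 for Ptrf in RPF, -0.71 for Ptrf and -0.89 for Prkcdbp in RNA, and 0.73 for Cav1 in Eff. The remaining cavin, Sdpr, had 0.44 in RPF and 0.36 in RNA, and Cav1 -0.09 in RNA, and none of these passed.

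The BAT to eWAT difference less the brown to white difference at day 5 was below 0 for each of the 5 genes in both assays. In RPF it was -2.52 for Cav1, -1.52 for Ptrf, -2.06 for Sdpr, -2.95 for Prkcdbp and -1.66 for Ehd2. In RNA it was -1.85 for Cav1, -0.86 for Ptrf, -2.06 for Sdpr, -3.37 for Prkcdbp and -1.89 for Ehd2. Prkcdbp was furthest from 0 in both assays.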

How the results depend on the processing

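Of 3235 values of single genes under other settings, 2988 kept direction and side of the threshold, 130 lost the call, 45 gained it and 72 turned direction. The 5 calls of BAT against eWAT, of eWAT against white cultures and of the gap between tissues less that between cultures held with any library left out in RPF and RNA. RPF values of Sdpr and Prkcdbp at day 0 rested on few reads. At brown day 0 those of Cav1 rested on 53 and 41 reads and those of Ehd2 on 45 and 35. Median-of-ratios scaling moved the median of all genes by 0.48 and quantile scaling by 0.41 in RPF of BAT against brown cultures.

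Changes in the number of members called are listed here where they were large in proportion, and smaller ones are not all listed. Among the smaller ones, RPF of white adipogenesis went from 3 higher and 1 lower to 3 higher and 0 lower under both other scalings. RNA of BAT against brown cultures went from 1 higher and 3 lower to 1 higher and 2 lower under both. The larger changes follow. For RPF, brown against white at day 0 had 1, which became 0 with the compared groups alone or no trend and 2 with the day 5 share subtracted. At day 5 it had 1, which became 0 under quantile scaling or no trend and 2 with the compared groups alone or voom. The RPF difference of day 5 changes had 2, which became 1 under quantile scaling, with the compared groups alone or with subtraction, and 0 with no trend. RNA of brown against white at day 0 went from 1 to 2 with the compared groups alone. For Eff, brown adipogenesis went from 1 to 2 under either scaling, and white adipogenesis from 2 to 1 with subtraction or weights per assay. Eff of brown against white at day 0 went from 1 to 0 under median-of-ratios scaling, with the compared groups alone, no trend or weights, and at day 5 from 0 to 1 with the compared groups alone. The Eff difference of day 5 changes went from 1 to 0 under either scaling, no trend or weights. BAT against brown cultures went from 3 to 1 under median-of-ratios scaling, eWAT against white cultures from 2 to 1 with no trend or weights, and the gap between tissues less that between cultures from 0 to 1 with the compared groups alone. An unchanged count can also hide a change of genes. Eff of eWAT against white cultures, 1 higher and 1 lower, became 2 higher and 0 lower under median-of-ratios scaling, losing Sdpr. Under quantile scaling it became 0 higher and 2 lower, losing Prkcdbp. Eff of brown against white at day 0, 1 lower, became 1 higher under quantile scaling, losing Cav1.

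With the replicate number as a block, no count of members called changed in RPF or RNA, and in Eff only eWAT against white cultures did, from 2 to 1. The labels tie no numbers to a culture or a pool, although tissue libraries share mice: deviations of same-numbered libraries correlated at -0.07 to 0.02 in RPF and -0.33 to 0.36 in RNA, and for BAT with eWAT at -0.07 and 0.18.

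In 72 values the direction turned, in 66 of them with no pass in either fit, and the cause was not tested. The 6 that passed in a fit were Ehd2 RPF of BAT against brown cultures under median-of-ratios scaling, Ptrf RNA of white adipogenesis and Cav1 Eff of eWAT against white cultures under quantile scaling and, with subtraction, Cav1 and Sdpr Eff of brown against white at day 0 and Sdpr Eff of the difference of day 5 changes. Under median-of-ratios scaling the RPF values were Ptrf 0.30 for white adipogenesis, Prkcdbp 0.10 for brown against white at day 0 and Ehd2 0.40 for BAT against brown cultures. Under median-of-ratios scaling the RNA values were Sdpr 0.15 for BAT against brown cultures. Under median-of-ratios scaling the Eff values were Prkcdbp -0.040 for brown adipogenesis, Sdpr -0.0036 for the difference of day 5 changes and Ptrf 0.087 for BAT against brown cultures. Under quantile scaling the RPF values were Ptrf 0.15 for white adipogenesis, Prkcdbp 0.25 for brown against white at day 0, Ehd2 -0.15 for the difference of day 5 changes and Ehd2 0.26 for BAT against brown cultures. Under quantile scaling the RNA values were Ptrf -0.048 for white adipogenesis, Ehd2 -0.020 for brown against white at day 0, Cav1 0.022 for the difference of day 5 changes and Sdpr 0.058 for BAT against brown cultures. Under quantile scaling the Eff values were Ptrf 0.19 and Ehd2 0.28 for white adipogenesis, Cav1 -0.049 and Ehd2 -0.056 for brown against white at day 5, Ptrf -0.42 and Ehd2 -0.0085 for the difference of day 5 changes, Ptrf 0.19 for BAT against eWAT, Ptrf 0.00056 for BAT against brown cultures, Cav1 -0.48 and Ehd2 -0.24 for eWAT against white cultures and Sdpr 0.27 for the gap between tissues less that between cultures. With the day 5 share subtracted the RPF values were Ptrf 0.076 for white adipogenesis, Cav1 0.24 for brown against white at day 0 and Sdpr -0.60 for the difference of day 5 changes. With the day 5 share subtracted the Eff values were Ehd2 0.11 for white adipogenesis, Cav1 0.019 and Sdpr 0.63 for brown against white at day 0 and Sdpr -0.96 for the difference of day 5 changes.

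Leaving out 1 library turned 39 values, none past the threshold in either fit. With 1 library left out the RPF values were Ptrf -0.13 to 0.045 for white adipogenesis, Sdpr -0.10 to 0.15 and Prkcdbp -0.34 to 0.23 for brown against white at day 0, Prkcdbp -0.46 to 0.14 for brown against white at day 5, Prkcdbp -0.41 to 0.19 for the difference of day 5 changes and Prkcdbp -0.16 to 0.66 for BAT against brown cultures. With 1 library left out the RNA values were Ptrf -0.10 to 0.041 for brown against white at day 0 and Cav1 -0.20 to 0.029 for the difference of day 5 changes. With 1 library left out the Eff values were Prkcdbp -0.29 to 0.30 for brown adipogenesis, Ehd2 -0.27 to 0.013 for white adipogenesis, Ehd2 -0.019 to 0.025 for brown against white at day 5, Sdpr -0.048 to 0.21 for the difference of day 5 changes, Ptrf -0.42 to 0.21 for BAT against eWAT, Ptrf -0.40 to 0.23 for BAT against brown cultures, Ehd2 -0.045 to 0.056 for eWAT against white cultures and Sdpr -0.10 to 0.092 for the gap between tissues less that between cultures.

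With 1 library left out, the counts were 0 to 2 in RPF for brown against white at day 0 and at day 5 and 1 to 2 for the difference of day 5 changes, and in RNA 0 to 1 for brown against white at day 0 and 0 to 3 for the difference of day 5 changes. In Eff they were 1 to 2 for brown and for white adipogenesis, 0 to 3 for brown against white at day 0, 0 to 1 at day 5, 0 to 1 for the difference of day 5 changes, 0 to 3 for BAT against brown cultures and for eWAT against white cultures, and 0 to 1 for the gap between tissues less that between cultures.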
